A study of Arabidopsis thaliana with 4 samples.

Results

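The genes described here are 4 aldehyde dehydrogenase genes of Arabidopsis thaliana: ALDH7B4 (AT1G54100), ALDH11A3 (AT2G24270), ALDH10A9 (AT3G48170) and ALDH3F1 (AT4G36250). They were chosen by name, with earlier results of these data known, as the probe sets whose annotation names exactly 1 of these loci. Each had 1 probe set, so they make up 4 of 3602 genes with a named probe set, and 4 of the 8247 probe sets analysed, of which 3794 name a single gene. The array carried 5 named genes of the 16 in the aldehyde dehydrogenase superfamily list. The fifth, ALDH6B2, is given below as a neighbour of the family. All 4 probe set names end in "_at" with no further letter, which in the manufacturer's naming marks a set designed against a single sequence. The probe sets of LTI30, COR47, KIN2, SAMDC and LHCB4.3, named below, carry a further letter and lack this mark. The locus of ALDH10A9 overlaps that of DEL1 (AT3G48160) in the RefSeq gene table, and no probe set names DEL1.

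Rosette leaves of Col-5 plants were profiled on 4 Affymetrix arrays, with 1 array for each combination of solution and time. All plants were grown on agar with sucrose and then in hydroponics under constant light. They received either full nutrients with 0.25 mM phosphate or the solution lacking phosphate, in which potassium sulphate was raised, and leaves were taken 4 h or 100 h after nutrient removal. How many plants were pooled for an array is not stated in the labels. Every ratio below sets a single array against a single array, so precision is limited by how few arrays there are. One label doubt remains: the full-nutrient array of 100 h carries a title code like those of both arrays without phosphate, and values that rest on it carry that doubt. The digits in the title codes of 3 arrays also differ from the times their labels give, and the label times were used.

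Aldehyde dehydrogenases oxidise aldehydes to carboxylic acids with NAD or NADP as the electron acceptor. In plants they remove reactive aldehydes, such as those from lipid peroxidation, and also serve in central metabolism. ALDH7B4 belongs to the turgor-responsive family 7 and is known from work on drought, salt and abscisic acid. ALDH11A3 is the non-phosphorylating glyceraldehyde-3-phosphate dehydrogenase, a cytosolic enzyme that yields NADPH and, unlike the phosphorylating enzyme of glycolysis, consumes no inorganic phosphate. ALDH10A9 oxidises aminoaldehydes, including those from polyamine breakdown, and betaine aldehyde. ALDH3F1 is a class 3 enzyme, from the family known for detoxifying aliphatic aldehydes.

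The deposited values are linear intensities whose trimmed mean was nearly the same on every array (100.17 to 100.20). Technical measures moved with the solution. Spike-in RNA, added to every hybridisation, read lower without phosphate: averaged over its 9 probe sets, the log2 ratio was -0.51 ± 0.12 (SD) at 4 h and -1.06 ± 0.24 at 100 h. Scanner background ran from 49.74 to 69.92 and the 3' to 5' ratio of GAPDH from 2.12 to 4.52, with the highest background and the lowest ratio both on the 100 h array without phosphate. The part of these measures in the ratios below was not tested. Of 9 leaf markers, 4 genes had a named probe set, with 5 probe sets in all at intensities from 55.7 to 7665. Of these, LHCB4.3 and PSAN, a light-harvesting and a photosystem I protein, and 1 of 2 probe sets of PSBW, a photosystem II protein, were 2.28, 1.21 and 2.22 higher (log2) at 100 h than at 4 h without phosphate, and that PSBW probe set was lower without phosphate at 4 h (-1.83). None of the 7 root markers had one, so carried-over root tissue could not be checked.

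Among the 4 genes, ALDH7B4 varied most over the arrays. It was high at 4 h and low at 100 h in both solutions. With full nutrients its intensity was 572.2 at 4 h and 142.6 at 100 h. Without phosphate these were 730.2 and 81.3. The highest array exceeded the lowest 8.98-fold. In whole leaves, a lower signal from fewer cells of a type and one from less RNA per cell cannot be told apart.

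ALDH11A3 had the reverse order in time. With full nutrients its intensity was 289.0 at 4 h and 602.3 at 100 h. Without phosphate the values were 416.4 and 766.1. Within each time the array without phosphate was the higher. The highest array exceeded the lowest 2.65-fold. The array also has control probe sets for GAPDH, the phosphorylating counterpart. The one for the middle of its transcript was at 1956 and 2657 at 4 h and at 1891 and 2074 at 100 h, in the order full nutrients and no phosphate. The one for its 3' end was at 1876 and 2162 at 4 h and at 2460 and 1132 at 100 h, and the one for its 5' end at 460.6, 828.8, 544.0 and 533.5. The 3 sets differ in their order over the arrays. The 3' and 5' sets, like ALDH11A3, were higher at 100 h than at 4 h with full nutrients. Unlike it, both were lower without phosphate at 100 h, the 5' set only slightly.

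ALDH10A9 varied less. Full nutrients gave intensities of 115.7 at 4 h and 110.0 at 100 h, and no phosphate gave 160.0 and 79.7. The 2 full-nutrient arrays were nearly level, with the highest value at 4 h and the lowest at 100 h both on arrays without phosphate. The highest array exceeded the lowest 2.01-fold. The order of its arrays was the same as that of ALDH7B4.

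ALDH3F1 had the narrowest range of the 4 probe sets. Full nutrients gave intensities of 61.6 at 4 h and 82.5 at 100 h, and no phosphate gave 52.4 and 100.5. The highest array exceeded the lowest 1.92-fold. All 4 genes were at or above 22.45, the level used as the filter on dim probe sets (the mean over arrays of the median), on all 4 arrays, and none was near the floor of 7.25 set for low values. ALDH6B2, the mitochondrial methylmalonate-semialdehyde dehydrogenase, was below this level on every array, with full nutrients at 10.8 at 4 h and 21.1 at 100 h, and without phosphate at 16.1 and 10.4. It was not tested in any comparison and enters only the medians of the family list.

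**Figure D1:**
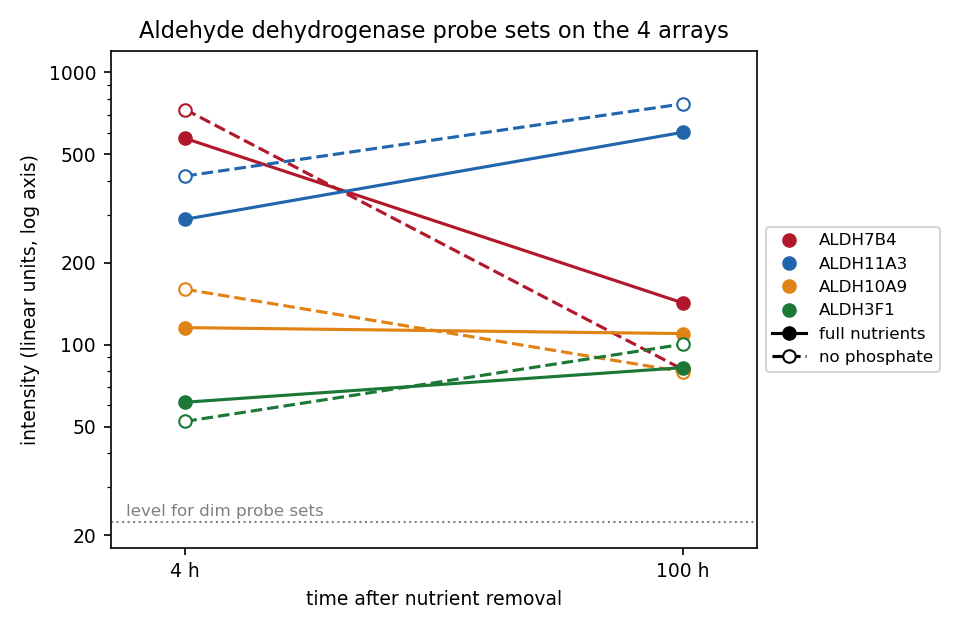
Intensity of the 4 aldehyde dehydrogenase probe sets (log axis, linear intensity units) at 4 h and 100 h after nutrient removal. Filled points and solid lines are full nutrients, open points and dashed lines no phosphate, with 1 array per point and no error bars. ALDH7B4 goes from 572.2 and 730.2 down to 142.6 and 81.3, and ALDH11A3 from 289.0 and 416.4 up to 602.3 and 766.1.

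The time comparisons ask how leaf expression differed between 100 h and 4 h within a solution. With full nutrients, ALDH7B4 was 4.01-fold lower at 100 h, a log2 ratio of -2.00 ± 0.48. The error here and in the ratios below is a measurement SD, the scatter of log2 ratios among probe sets that name one gene (193 probe sets of 91 genes). It covers differences between probe sets on the same arrays, and neither errors common to a whole array nor the spread between plants. The ratio was 4.22 times this SD. ALDH11A3 was 2.08-fold higher (log2 ratio 1.06 ± 0.48). ALDH3F1 (0.42) and ALDH10A9 (-0.07) differed by less than this SD.

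The rule for a call, here by size alone, was at least a 2-fold difference with the brighter of both arrays at the level or above. With full nutrients 1 of the 4 genes was called lower, against 12.7% of the 4516 probe sets tested, and 1 was called higher, against 6.44%. The log2 ratio of ALDH7B4 lay at the 3.74 percentile of all tested probe sets and that of ALDH11A3 at the 94.4 percentile. The call of ALDH11A3 is close to the limit, and its ratio was under 2-fold after cyclic loess (0.92) and spike-in scaling (0.91).

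Without phosphate, ALDH7B4 was 8.98-fold lower at 100 h than at 4 h, a log2 ratio of -3.17 ± 0.54 and 5.86 times the measurement SD. ALDH10A9 was 2.01-fold lower (-1.01 ± 0.54). ALDH3F1 (0.94 ± 0.54) and ALDH11A3 (0.88 ± 0.54) were 1.92-fold and 1.84-fold higher, under the 2-fold limit. So 2 of the 4 genes were called lower, against 17.4% of 4534 probe sets tested, and 0 were called higher, against 15.3%.

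In this comparison ALDH7B4 lay at the 2.01 percentile of all tested probe sets, whereas ALDH10A9 (17.3), ALDH11A3 (81.4) and ALDH3F1 (83.3) lay well inside the range. The call of ALDH10A9 ended after quantile normalization (-0.92), cyclic loess (-0.96), a pseudocount (-0.88) and spike-in scaling (-0.60). ALDH3F1 reached 2-fold after quantile normalization (1.00) and spike-in scaling (1.34), as did ALDH11A3 after spike-in scaling (1.28). The ratio of ALDH7B4 stayed between -3.18 and -2.77 without phosphate and between -2.15 and -1.89 with full nutrients under the alternatives run.

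ALDH7B4 was thus lower by 2-fold or more in both solutions, as were 349 of 4294 probe sets tested in both (8.13%). The 2 time ratios share no array. The time ratio without phosphate was lower than that with full nutrients by 1.16 (log2) for ALDH7B4 and by 0.93 for ALDH10A9, which is the same quantity as the difference between the phosphate ratios of the 2 times given below. It was not tested, because a model with this difference leaves no residual degree of freedom.

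**Figure D2:**
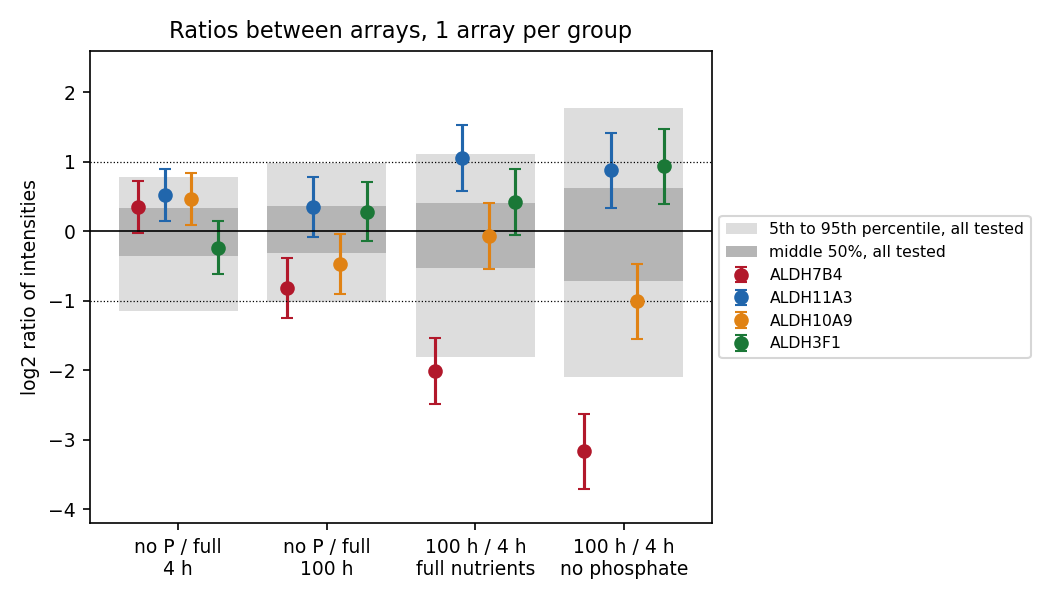
Log2 ratio of intensities in the 4 comparisons (1 array against 1 array). Points are the 4 genes and bars ± 1 measurement SD, grey boxes span the middle 50% and the 5th to 95th percentile of all tested probe sets, and dotted lines mark 2-fold. ALDH7B4 lies below the grey range in both time comparisons (-2.00 and -3.17), while the phosphate ratios of all 4 genes lie within 2-fold; after spike-in scaling 3 phosphate ratios turn sign and 3 pass 2-fold.

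An additive model of time and phosphate, fitted with limma to all 4 arrays and 4756 probe sets, gives the one test the design allows. Its single residual degree of freedom holds the interaction of time and phosphate. This is how much a gene's time effect differed between solutions, or its phosphate effect between times. The error of each test combines it with a prior pooled over the probe sets, which has more degrees of freedom and so the larger weight. An effect is thus tested only in part against the gene's own interaction. For time over both solutions ALDH7B4 had a log2 difference of -2.59 ± 0.42 (SE, n = 4 arrays, adjusted p = 0.0564), lower at 100 h in 2 of 2 solutions. This misses the threshold of 0.05. So none of the 4 genes was called, against 2.02% of all probe sets.

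The adjusted p of ALDH7B4 depended on the processing although its own 4 values lie far above the floor. It was 0.00267 with the floor at the 45th percentile, 0.0303 with a trend in the prior and 0.0368 with a pseudocount, past the threshold in these 3 settings, and up to 0.384 with no filter on level. The pooled prior changed as well, with 9.47, 5.19, 4.43 and 0.45 degrees of freedom in the order of these settings. For the other 3 genes the time differences were 0.97 ± 0.33 for ALDH11A3 (adjusted p = 0.192), 0.68 ± 0.35 for ALDH3F1 (adjusted p = 0.316) and -0.54 ± 0.39 for ALDH10A9 (adjusted p = 0.451; all limma, SE, n = 4 arrays). ALDH11A3 and ALDH3F1 were higher at 100 h in 2 of 2 solutions, and ALDH10A9 was lower in 2 of 2, though with full nutrients by 0.07 only and with the sign turned (0.065) after quantile normalization.

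The phosphate comparisons ask which genes differed without phosphate, the question named in the series title. At 4 h, 3 of the 4 genes were higher without phosphate, by 1.44-fold at most. The median log2 ratio of all tested probe sets was 0.02, so at least as many of them were higher as lower. The log2 ratios were 0.53 for ALDH11A3, 0.47 for ALDH10A9 and 0.35 for ALDH7B4, and -0.23 for ALDH3F1, each with a measurement SD of 0.38. None was called, against 8.87% of 4478 probe sets. The largest, that of ALDH11A3, was 1.40 times the measurement SD and lay at the 86.1 percentile of all tested probe sets.

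At 100 h, ALDH7B4 was 1.75-fold lower without phosphate, a log2 ratio of -0.81 ± 0.43 and 1.89 times the measurement SD. ALDH10A9 was lower (-0.46), and ALDH11A3 (0.35) and ALDH3F1 (0.28) were higher, again with a measurement SD of 0.43. None was called, against 10.1% of 4331 probe sets. ALDH7B4 lay at the 7.64 percentile of all tested probe sets.

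These signs depend on the scaling of the arrays. Scaling to the spike-in probe sets, which were themselves lower without phosphate, moved the median log2 ratio of all tested probe sets to 0.57 at 4 h and 1.12 at 100 h. ALDH7B4 and ALDH10A9 at 100 h then had 0.25 and 0.60, and ALDH3F1 at 4 h had 0.28, each with its sign turned. Relative to those medians they had -0.86, -0.52 and -0.28. These lie near the values above by construction, because the scaling shifts every ratio of a comparison alike. ALDH11A3 kept its sign, with 1.04 at 4 h and 1.41 at 100 h, or 0.48 and 0.29 relative to the medians. Set against the full-nutrient array of 4 h instead, the 100 h ratios of ALDH7B4 (-2.82) and ALDH11A3 (1.41) moved by more than the measurement SD, and those of ALDH3F1 (0.71) and ALDH10A9 (-0.54) by less.

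ALDH11A3 was the only one of the 4 genes higher without phosphate at both times, at 416.4 against 289.0 and 766.1 against 602.3. Among the 4053 probe sets tested in both phosphate comparisons, 22.8% shared this. Neither ratio reached 2-fold, and limma gave 0.44 ± 0.33 over both times (SE, n = 4 arrays, adjusted p = 0.999). ALDH7B4 (-0.23), ALDH10A9 (0.0014) and ALDH3F1 (0.03) had the same adjusted p, and their averages hide ratios of opposite sign at the 2 times. Limma called 0% of all probe sets for phosphate, with 89 of 4756 at an unadjusted p under 0.05.

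ALDH7B4 and ALDH10A9 were higher without phosphate at 4 h and lower at 100 h, as were 29.1% of the 4053 probe sets. ALDH3F1 was lower and then higher, as were 28.3%. The phosphate ratio at 100 h minus that at 4 h was -1.16 for ALDH7B4, -0.93 for ALDH10A9, 0.52 for ALDH3F1 and -0.18 for ALDH11A3. The SD of such a difference from the scatter between probe sets, with independent errors, is 0.57.

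The 4 genes did not share a pattern over the arrays. The distance between 2 patterns was taken as the Euclidean distance of the log2 intensities after each was centred on its own mean over the 4 arrays. It was smallest between ALDH11A3 and ALDH3F1 (0.61), both higher at 100 h, and largest between ALDH7B4 and ALDH11A3 (3.65). ALDH10A9 lay 1.42 from ALDH3F1, 1.61 from ALDH11A3 and 2.06 from ALDH7B4.

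The same distance was used to name, for each gene, the 3 genes of most like pattern among 2100 probe sets that name another gene and lie above the floor on every array. For ALDH7B4 these were AT2G28710 at a distance of 0.14, SDH1-1, the flavoprotein subunit of succinate dehydrogenase in mitochondria, at 0.21, and AT2G28400 at 0.36. AT2G28710 was at 127.2 and 163.5 at 4 h and at 31.7 and 20.2 at 100 h, in the order full nutrients and no phosphate. SDH1-1 was at 173.6, 220.7, 46.8 and 29.5. Both had the higher value without phosphate at 4 h and the lower one at 100 h. They were chosen for likeness to ALDH7B4 on these arrays, so this is no separate result.

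For ALDH11A3 the most like genes were AT2G12400 (distance 0.078), AT2G29910 (0.13) and AT4G15930 (0.17). For ALDH10A9 they were AT4G31450 (0.093), AT2G39270 (0.098) and AT5G67540 (0.100). For ALDH3F1 they were AT2G38610 (0.015), AT1G04150 (0.095), which is dim at 8.70 to 15.8, and AT2G35410 (0.10). AT2G38610 was at 228.0, 194.7, 302.1 and 371.5 in the same order of arrays. A pattern here is 4 values from 4 arrays, and likeness on so few values is a description of these arrays.

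**Figure D3:**
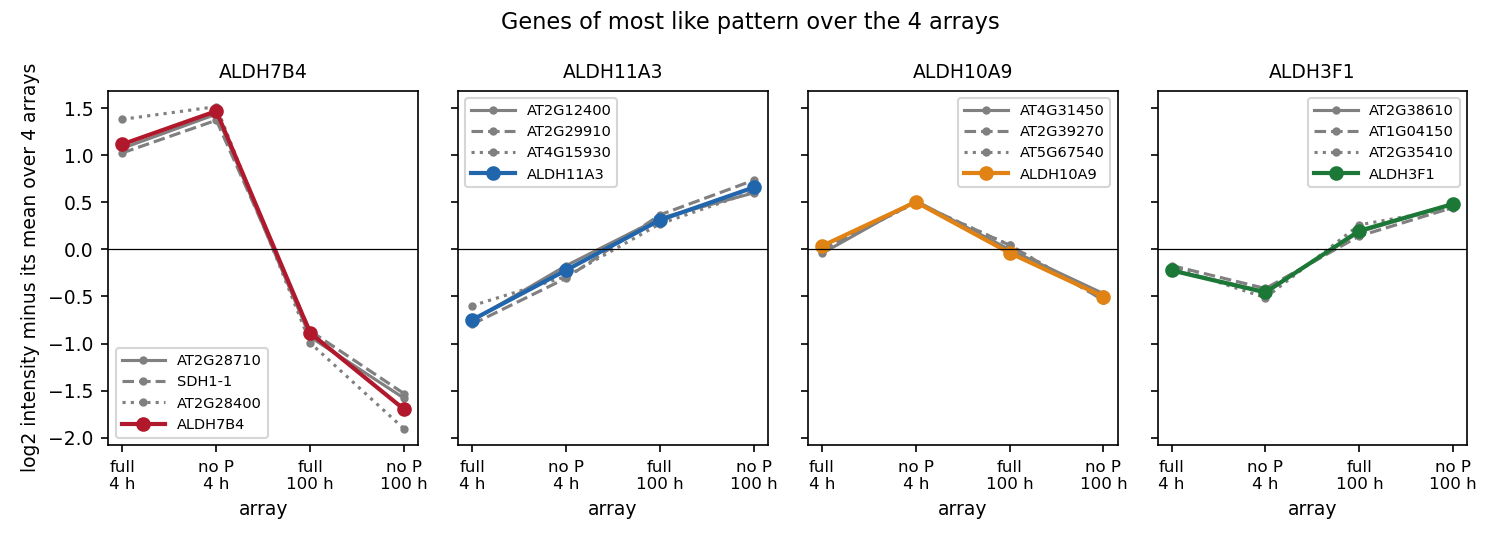
Log2 intensity minus its mean over the 4 arrays, for each of the 4 genes (coloured, thick) and the 3 genes of most like pattern (grey), with 1 array per point. ALDH7B4 and its like genes are high on both 4 h arrays and lowest without phosphate at 100 h, and the distances run from 0.015 (AT2G38610 to ALDH3F1) to 0.36 (AT2G28400 to ALDH7B4).

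Other genes of the pathways were measured only in part. Of 14 dehydration and abscisic acid markers, 3 genes had a named probe set. The names of their 5 probe sets all carry a further letter before "_at", so they may not read a single gene. LTI30, a dehydrin, was lower at 100 h in both solutions as ALDH7B4 was (log2 ratios -3.66 and -4.50), and the limma time difference passed the threshold (-4.08, adjusted p = 0.0443). That call ended with no filter on level, quantile normalization and cyclic loess, where limma called 0 probe sets for time, the smallest adjusted p was 0.236, 0.0543 and 0.0554, and 1162, 997 and 982 probe sets had an unadjusted p under 0.05. LTI30 was at 258.8 and 280.3 at 4 h and at 20.5 and 12.4 at 100 h, in the order full nutrients and no phosphate, and both 100 h values are under the level of 22.45. COR47, also a dehydrin, was lower at 100 h without phosphate on both probe sets (-2.07 and -1.39) but under 2-fold with full nutrients (-0.58 and -0.39). KIN2, a cold- and abscisic acid-induced gene, went the other way, 1.67 and 1.73 (log2) higher at 100 h without phosphate on its 2 probe sets. At 4 h COR47 was higher without phosphate by 1.11 on 1 of 2 probe sets, and KIN2 was lower on both (-1.12 and -1.19). The median over the 3 genes was -0.49 with full nutrients and -1.73 without phosphate, each being the mean of the 2 COR47 probe sets. The median of all probe sets was -0.02 in both.

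Of 21 genes of glycolysis and its phosphate-saving bypass, 3 had a named probe set, and all were under 2-fold for phosphate at both times. AT1G12000, which encodes a beta subunit of the pyrophosphate-dependent phosphofructokinase, was at 57.3 and 61.3 at 4 h and at 25.7 and 26.7 at 100 h, in the order full nutrients and no phosphate. It was lower at 100 h in both solutions, with log2 ratios of -1.16 and -1.20. The median of the 3 genes was 0.10 for phosphate at 4 h and 0.06 at 100 h, each being the ratio of AT1G12000. The median of all probe sets was 0.02 at each time.

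Of 12 genes of polyamine and aminoaldehyde formation, which supplies substrates to ALDH10A9, SAMDC alone was measured. It encodes S-adenosylmethionine decarboxylase, and its 2 probe sets had log2 ratios from -0.11 to 0.42 in the 4 comparisons. None of the 5 aldehyde reductases and none of the 16 phosphate starvation markers had a named probe set, so the phosphate status of the leaves could not be read from those genes. Over the 5 measured genes of the aldehyde dehydrogenase list, the untested ALDH6B2 included, the median log2 ratio was 0.47 for phosphate at 4 h, -0.46 at 100 h, 0.42 for time with full nutrients and -0.63 without phosphate, the last being the ratio of ALDH6B2 itself.

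**Figure D4:**
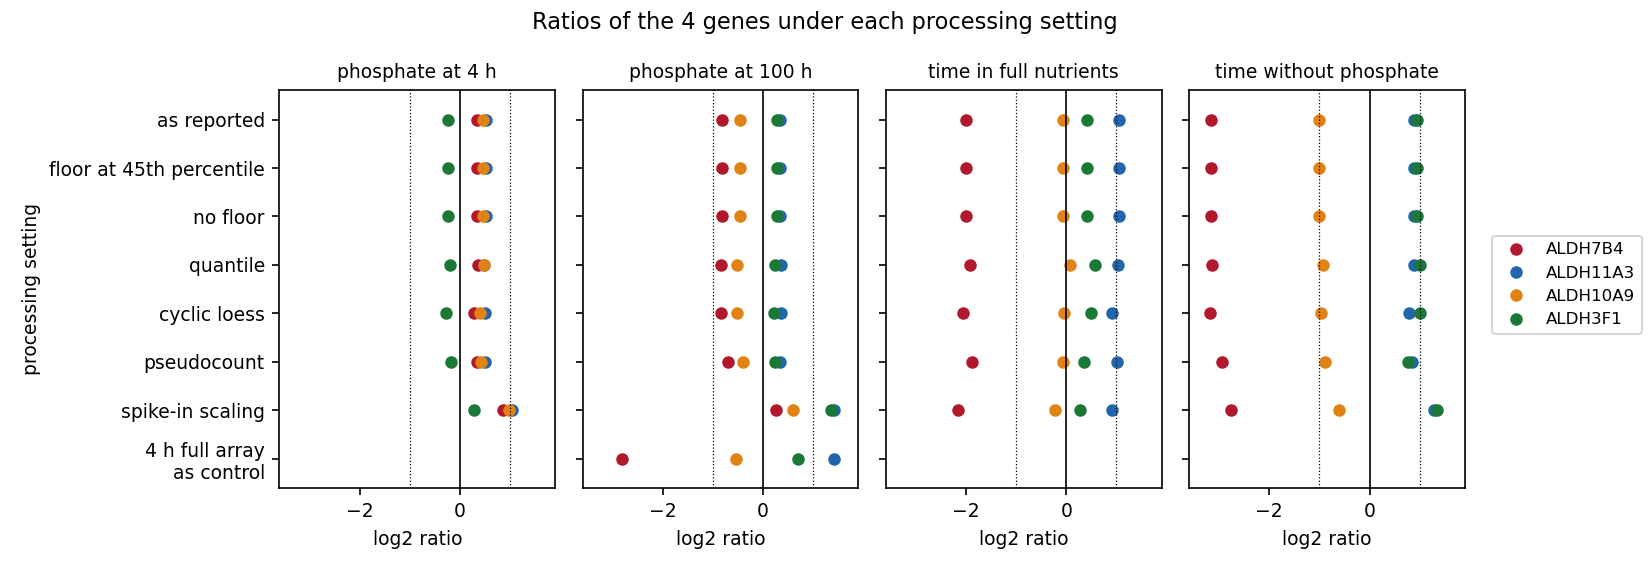
Log2 ratio of the 4 genes in the 4 comparisons under each processing setting, with 1 point per gene and setting and dotted lines at 2-fold. ALDH7B4 stays more than 2-fold lower at 100 h in both time comparisons, whereas spike-in scaling turns the sign of 3 phosphate ratios and the 4 h full-nutrient control moves ALDH7B4 at 100 h from -0.81 to -2.82.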

How the data were processed

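The authors deposited 1 linear intensity per probe set and array. Per the labels, total RNA was made into biotin-labelled cRNA and hybridised; no software or summary method is given in the sources used here. Each array's mean after trimming 2% at each end was alike, so a change in total mRNA per cell cannot be seen. Of 8297 probe sets, 50 controls were left out. Genes were named from the platform annotation, and the RefSeq table (TAIR10.1), which held the loci of 3784 probe sets, was used for names and neighbouring genes only. Solution came from the treatment protocol and time from the age label.

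Before log2, intensities were floored at 7.25, the 30th percentile averaged over arrays. The filter level was 22.45. Pairs of arrays were compared by the 2-fold rule. The additive model used limma 3.58.1 in R 4.3.3 (lmFit, eBayes, two-sided, Benjamini-Hochberg over 4756 probe sets, 4.20 prior degrees of freedom). The code was first run on simulated arrays with large changes and no interaction, a simpler setting than these data. The p-values cover the spread among these arrays alone, in part through the prior pooled over probe sets. Alternatives were a floor at the 45th percentile, no floor (values under 1 set to 1), a pseudocount of 16, quantile and cyclic loess normalization, spike-in scaling, other level filters, a prior trend and the other control. The genes and lists were chosen with earlier results of these data known. The named genes are the 4, list genes that were called, and the 3 of most like pattern. Sequences were not used here.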

Additional observations from a re-analysis of the deposited data

Results flagged for a closer look

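With 1 array per group no array could be set against others of its group. Of the 4 genes, 3 moved in opposite directions without phosphate at 4 h and at 100 h, and this difference was not tested. The phosphate ratio at 100 h minus that at 4 h was -1.16 (log2) for ALDH7B4, from 0.35 to -0.81. It was -0.93 for ALDH10A9, from 0.47 to -0.46, and 0.52 for ALDH3F1, from -0.23 to 0.28. Of all probe sets tested at both times, 57.3% had opposite signs. After spike-in scaling the differences were -0.61, -0.38 and 1.07, and in each gene the 2 ratios then had the same sign.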

How the results depend on the processing

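Of 100 values of the phosphate and time ratios of the 4 genes under the alternatives, 90 moved by less than 1 measurement SD, and 57 of 64 limma values kept direction and side of the threshold. The alternative floors of 17.3 and 1 could not move any of these ratios, as the lowest intensity of the 4 genes was 52.4. The 10 that moved were every phosphate ratio under spike-in scaling, and ALDH7B4 and ALDH11A3 at 100 h with the 4 h full-nutrient control. Spike-in scaling gave phosphate ratios at 4 h of 0.87 for ALDH7B4, 1.04 for ALDH11A3, 0.98 for ALDH10A9 and 0.28 for ALDH3F1, and at 100 h of 0.25, 1.41, 0.60 and 1.35. By construction it shifts alike every ratio of a comparison whose 2 values lie above the floor, as those of the 4 genes do. The limma phosphate difference of ALDH7B4 was then 0.56 (adjusted p = 0.359). Signs near 0 turned for ALDH10A9 (-0.020 after quantile normalization, -0.062 after cyclic loess) and ALDH3F1 (-0.024 after cyclic loess), and the cause was not tested. With the 4 h full-nutrient control, ALDH7B4 had -2.82 and ALDH11A3 1.41 at 100 h. The limma time difference of ALDH7B4 passed the threshold with a prior trend (-2.59), the higher floor (-2.59) and a pseudocount (-2.41). No paired analysis was possible because each group has 1 array, and leaving out an array leaves no residual degree of freedom.

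Counts of probe sets by the 2-fold rule varied with the filter and the scaling. The phosphate counts at 4 h were 99 higher and 298 lower, and became 23 and 51 with both arrays at 100 or more, 734 and 111 with spike-in scaling and 38 and 167 with a pseudocount, with 150 higher under no filter. At 100 h they were 206 higher and 233 lower, and became 42 and 41 with both arrays at 100 or more, 2771 and 44 with spike-in scaling, 90 and 125 with a pseudocount and 442 and 697 with the other control, with 357 lower under no filter. For time with full nutrients, 291 higher and 572 lower became 102 and 102 with both arrays at 100 or more and 176 and 364 with a pseudocount, with 163 higher after spike-in scaling. For time without phosphate, 695 and 790 became 207 and 146 with both arrays at 100 or more, with 1347 higher after spike-in scaling and 523 lower with a pseudocount.

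Limma called 6 probe sets higher and 90 lower for time. This became 12 and 150 with a prior trend, 89 and 276 with the higher floor, 0 and 4 with no floor, 0 and 27 with spike-in scaling, and 0 in either direction with no filter, quantile normalization or cyclic loess; 1024 of 4756 had an unadjusted p under 0.05 as reported. Probe sets at the floor on several arrays have no spread there, and the dim end of the scale limits what these counts can show.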
